A study of Mus musculus with 2 samples.

Results

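MHC class II presentation genes were examined in lipopolysaccharide (LPS)-treated bone marrow-derived macrophages (BMDMs) with and without tristetraprolin (TTP). The genes were taken by symbol and comprised the surface chain genes *H2-Aa*, *H2-Ab1* and *H2-Eb1*, the invariant chain gene *Cd74*, the transactivator gene *Ciita*, the peptide exchange genes *H2-DMa* and *H2-DMb1*, and the protease gene *Ctss*. These 8 symbols matched 9 of 37451 rows in the expression table, because *Ciita* is listed under 2 gene identifiers. The WT library came from C57BL/6 BMDMs. The ΔM library came from C57BL/6 TTP fl/fl LysMCre BMDMs, in which Cre recombinase driven from the lysozyme M locus deletes the floxed TTP gene *Zfp36* in myeloid cells. The marrow donors in both groups were littermates aged 7 to 9 weeks, and CSF-1 from L929 cells was used for differentiation. Both cultures received 100 μM 4-thiouridine for 16 h and then 10 ng/ml LPS for 6 h by the stated protocol, whereas the sample titles end in LPS7, which the labels do not explain, and 1 rRNA-depleted library was made per genotype. There are therefore no replicates, no test was possible, and a difference between the libraries cannot be told apart from a difference between any 2 cultures.

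MHC class II molecules are heterodimers of an α and a β chain that carry peptides from endocytosed proteins to the surface, where CD4+ T cells recognize them. The invariant chain encoded by *Cd74* occupies the groove during assembly, cathepsin S (*Ctss*) degrades it in endosomes, and H2-DM exchanges the remaining fragment for antigenic peptide. CIITA does not bind DNA itself but is recruited to conserved X and Y boxes in class II promoters by RFX and NF-Y, of which NF-Y recognizes the CCAAT sequence. Macrophages carry modest amounts of class II that interferon-γ raises through CIITA. TTP promotes the decay of mRNAs with AU-rich elements, preferentially of the form UAUUUAU, in their 3′ UTRs.

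Values are FPKM, fragments scaled to exon length and sequencing depth, so levels can be compared between genes per length. The steps between low FPKMs corresponded to about 36900000 fragments in WT and 32600000 in ΔM. Poisson intervals (95%) from these depths are given for each member and for some of the other genes, and they are approximate and cover counting error only. *Zfp36* gave 65.3 FPKM in WT against 16.7 in ΔM. All 8 macrophage marker genes (*Emr1*, *Csf1r*, *Cd68*, *Fcgr1*, *Mertk*, *Cd14*, *Itgam* and *Lyz2*) were detected in both libraries, at a summed level of 4001 FPKM in WT and 2864 FPKM in ΔM. *Lyz2*, the locus that carries Cre, accounted for most of that gap, with 2481 and 1356 FPKM. Other cells that express class II left little RNA. The 6 B cell markers summed to 0.29 FPKM in WT against 0.65 in ΔM, and 0 of the 6 averaged 1 FPKM or more. The 8 dendritic cell markers summed to 5.69 and 4.97 FPKM, of which *Itgax*, which macrophages share, gave 3.96 and 3.47, while *Zbtb46* was at 0.03 FPKM in both and *Flt3* at 0.04 FPKM in WT and listed at 0 in ΔM. The 6 T cell markers summed to 1.04 and 0.80 FPKM, nearly all of it *Cd4*. Among the 5 neutrophil markers *S100a8* was at 50.7 FPKM in WT against 100 in ΔM and *Camp* was listed at 0 in WT and at 0.41 FPKM in ΔM, while *Ly6g*, *S100a9* and *Ngp* were listed at 0 in both. The part of these other cells in the class II values was not tested, and in bulk RNA fewer cells of a type and less RNA per cell cannot be told apart.

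Promoter sequences are shown for the class II genes on chromosome 17 that were found to share a word near the start site. These were 3 of the 5 members there, and *H2-Ab1* had no promoter window to search. RefSeq promoter windows of 300 bases (GRCm38.p6, from 250 bases before to 50 after the start site) were found for 5 of the 8 symbols, namely *Ctss*, *H2-Aa*, *H2-DMa*, *H2-DMb1* and *H2-Eb1*, and each matched mm9 exactly. The search was for ATTGG, the reverse complement of CCAAT. In the 30-base windows shown next, which end at that word, it is written in capitals. They lie at chr17:34424812-34424841 (minus strand), chr17:34442728-34442757 (plus strand) and chr17:34290050-34290079 (plus strand) of mm9.
H2-Aa: gacgtcatcacaagagaattttctgATTGG
H2-Eb1: atgatgctggactcctttgatgctgATTGG
H2-DMb1: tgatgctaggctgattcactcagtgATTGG

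The word starts 48 bases before the start site in *H2-Aa*, 59 bases before it in *H2-Eb1* and 61 bases before it in *H2-DMb1*. ATTGG or CCAAT occurs in 37.4% of the 32851 promoter windows of the table, so its presence alone is common. ATTGG starting between 70 and 40 bases before the start site, a range chosen after these positions were seen, occurs in 4.15%. *H2-DMa* has 2 start sites in the table, both upstream of its annotated span in mm9, of which 1 carries ATTGG, 198 bases before the start, and neither strand of the *Ctss* window holds the word. The promoter windows of the 5 members that had one were also compared in pairs. For *H2-DMa* 1 of its 2 windows was used, the one without ATTGG. The longest run shared by any of these pairs, shown in capitals in the next windows, has 13 bases. It belongs to *H2-Eb1* (chr17:34442715-34442744) and *H2-DMb1* (chr17:34290036-34290065).
H2-Eb1: taactagcAACTGATGATGCTggactcctt
H2-DMb1: tacctagtAACTGATGATGCTaggctgatt

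The run lies 89 bases before the start in *H2-Eb1* and 92 bases before it in *H2-DMb1*, upstream of ATTGG in both, and these were the 2 genes of the table whose promoter windows contain it. All other compared pairs shared 9 bases or fewer.

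The UAUUUAU heptamer was then counted in the longest annotated 3′ UTR of each member, as TATTTAT on the sense strand. It was found in 1 of the 8, *H2-DMb1*, whose 3′ UTR of 284 nt holds it once from position 143 (chr17:34297016-34297045, capitals mark the heptamer).
H2-DMb1: gtttgggggggTATTTATaatgaagtctgt

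Among 1907 genes with 3′ UTRs of similar length (within 25%), 7.13% hold the heptamer. The other 7 members held 0 copies of it, and also 0 copies of the shorter word ATTTA. Of these, 6 have short 3′ UTRs of 218 to 484 nt, and among genes with 3′ UTRs of similar length 27.1% to 47.0% have ATTTA, so most such genes lack it. For the *Ciita* 3′ UTR of 1822 nt, 85.7% of the 3468 genes of similar length have it. Outside the mature mRNA, TTP crosslinking sites with listed sequences fall within intron 2 of *Ctss*. They lie at chr3:95336740-95336774 and chr3:95336780-95336789 on the plus strand, and the windows shown hold the last 30 bases of the longer site and all 10 bases of the shorter site, with a heptamer in capitals.
Ctss, longer site: ctaaaccaattcttctTATTTATttattta
Ctss, shorter site: tTATTTATtt

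The longer *Ctss* site contains the heptamer 2 times, counting overlapping copies. TTP sites of the other members are not analysed here.

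The genes for the surface chains were expressed at similar levels in WT and ΔM BMDMs. *H2-Aa*, which encodes the α chain of I-A, was at 36.4 FPKM in WT (33.8 to 39.2) and 41.0 FPKM in ΔM (38.0 to 44.1). *H2-Ab1*, which encodes the β chain of the same heterodimer, was at 33.8 FPKM in WT (31.8 to 35.9) and 35.7 FPKM in ΔM (33.5 to 37.9). The counting intervals of the 2 libraries overlapped for each of these genes, although that of the ΔM to WT ratio of *H2-Aa*, 1.12 (1.01 to 1.249), lay just above equality. With the longest in place of the median annotated transcript length, the *H2-Aa* intervals were separate, at 34.4 to 38.49 FPKM in WT and 38.71 to 43.3 FPKM in ΔM. *H2-Eb1* (chr17:34442828-34453144, plus strand), the β chain gene of I-E, was at 23.1 FPKM in WT (21.3 to 24.99) and 20.6 FPKM in ΔM (18.8 to 22.5), again with overlapping intervals. It was the only member averaging 1 FPKM or more whose value was lower in ΔM. The C57BL/6 strain does not make the I-E α chain, and the annotated pseudogene *H2-Ea-ps* was at 0.03 FPKM in WT and listed at 0 in ΔM. *H2-Eb1* mRNA was thus present with almost none from the locus of its partner. *H2-Aa* (chr17:34406276-34424772, minus strand) and *H2-Ab1* (chr17:34400154-34406363, plus strand) converge, and their annotated ends overlap by 88 nt. Whether the counting used strand is not given in the sources used here, so a few fragments at these ends could belong to either gene. The α to β ratio of I-A mRNA was 1.08 in WT and 1.15 in ΔM. The intervals of *H2-Aa* and *H2-Ab1* overlapped in WT and narrowly missed each other in ΔM, where those of *H2-Aa* began at 38.0 FPKM.

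**Figure D1:**
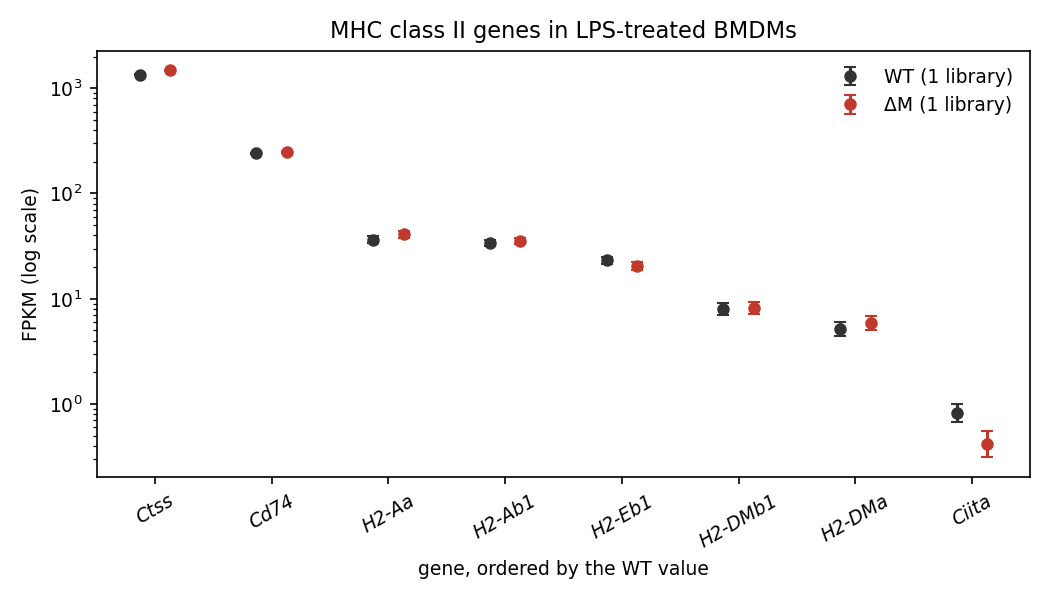
FPKM (log scale) of the 8 class II genes in the WT library (black) and the ΔM library (red), ordered by the WT value, with 95% Poisson counting intervals. The points of both libraries lie close together from *Ctss* at 1346 and 1473 FPKM down to *H2-DMa* at 5.17 and 5.88 FPKM, and are separate for *Ciita* at 0.83 and 0.42 FPKM.

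The genes for invariant chain handling were the most abundant members. *Cd74* (chromosome 18, 60963502 to 60972300, plus strand, mm9) was at 240 FPKM in WT (235 to 245) and 246 FPKM in ΔM (241 to 251), with overlapping intervals. The invariant chain mRNA therefore exceeded *H2-Aa* mRNA 6.59-fold in WT and 6.00-fold in ΔM, and *H2-Ab1* mRNA 7.10-fold and 6.89-fold. *Cd74* ranked 123rd in WT and 133rd in ΔM among 8078 protein-coding genes averaging 1 FPKM or more. The 3 protein-coding genes with the values most like those of *Cd74* over the 2 libraries, by Euclidean distance on the log2(FPKM + 1) scale, were *Lgals9* (distance 0.0122), *Eef1a1* (0.0402) and *Lgals3bp* (0.0662).

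*Ctss* (chr3:95330708-95360325, plus strand) was at 1346 FPKM in WT (1335 to 1357) and 1473 FPKM in ΔM (1461 to 1485). It ranked 11th among the protein-coding genes in WT and 9th in ΔM. The ratio of ΔM to WT was 1.09 with a counting interval from 1.08 to 1.11, so the intervals of the libraries were separate although the difference was small. About 57429 fragments in WT stand behind this value, which makes the counting error very small, whereas variation between cultures was not measured. After centring on the median ratio of genes averaging 10 FPKM or more, the log2 ratio of *Ctss* went from 0.13 to 0.09, below that counting interval. *Ctss* alone made up 79.5% of the summed FPKM of the 7 members averaging 1 FPKM or more in WT and 80.5% in ΔM.

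H2-DM is the heterodimer that edits the peptide, and its genes were expressed below those of the surface chains. *H2-DMa* (chr17:34272127-34276046, plus strand), the α chain gene, was at 5.17 FPKM in WT (4.43 to 6.00) and 5.88 FPKM in ΔM (5.04 to 6.82). *H2-DMb1* (chr17:34290017-34297168, plus strand), a β chain gene, was at 8.03 FPKM in WT (7.07 to 9.09) and 8.19 FPKM in ΔM (7.16 to 9.33). The libraries did not differ beyond counting error for either gene. Within a library *H2-DMb1* was above *H2-DMa*, 1.55-fold in WT and 1.39-fold in ΔM, with separate intervals in both. The neighbouring paralog *H2-DMb2*, the other β chain gene, was at 0.17 FPKM in WT (0.07 to 0.35) and 0.38 FPKM in ΔM (0.21 to 0.64). Of the 100-nt windows of the longest *H2-DMb1* transcript, 13.8% are identical in *H2-DMb2*. Uniquely mapped reads alone were kept by the authors, so fragments from those windows may be missing from both genes. None of the other members shared a window of this length with the protein-coding transcripts of another gene. Low levels were also found for H2-DO, an inhibitor of H2-DM that is typical of B cells. *H2-Oa* was at 0.03 FPKM in WT (0.0007 to 0.17) and 0.44 FPKM in ΔM (0.23 to 0.76), and *H2-Ob* at 0.42 FPKM in WT (0.25 to 0.67) and 0.09 FPKM in ΔM (0.02 to 0.25). The 2 genes for this heterodimer thus differed in opposite directions, on about 0.98 and 12.8 fragments for *H2-Oa* and 17.4 and 3.29 fragments for *H2-Ob*.

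*Ciita* was the member with the largest relative difference between the libraries and the lowest level. The row of the main gene (ENSMUSG00000022504, chr16:10480237-10527657, plus strand) was at 0.83 FPKM in WT (0.68 to 1.001) and 0.42 FPKM in ΔM (0.31 to 0.56). These values rest on about 109 fragments in WT and 48.9 in ΔM. The intervals were separate, and the ratio of ΔM to WT was 0.51 with a counting interval from 0.35 to 0.72. The mean of 0.63 FPKM is under the minimum of 1 FPKM used for the comparison across genes, and with 1 FPKM added to both values the log2 ratio was -0.37, which understates the ratio of so low a gene. The second row of this symbol (ENSMUSG00000075404, chr16:10489876-10492330) is a single-transcript gene within the span of the main gene and was at 0.02 FPKM in WT, about 1.05 fragments, and listed at 0 in ΔM. *Ciita* mRNA was 43.9-fold below *H2-Aa* mRNA in WT and 97.5-fold below it in ΔM. Lower *Ciita* in the ΔM library thus stood beside values of *H2-Aa*, *H2-Ab1* and *Cd74* that were at least as high as in WT, and beside a lower value of *H2-Eb1*.

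**Figure D2:**
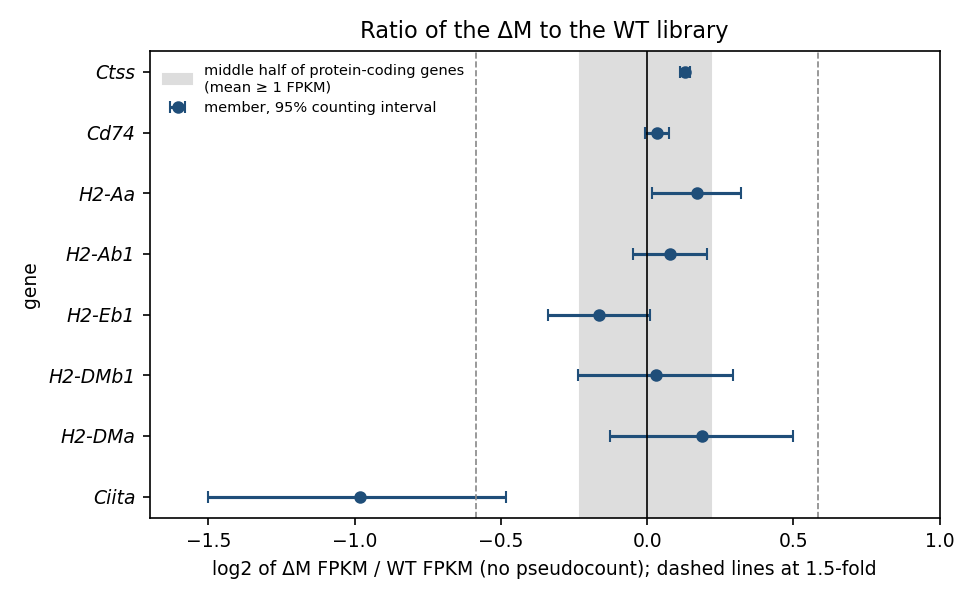
Log2 ratio of ΔM to WT FPKM for the 8 genes, without a pseudocount, with 95% counting intervals, the interquartile range of protein-coding genes averaging 1 FPKM or more in grey (-0.23 to 0.22) and dashed lines at 1.5-fold. The points of 7 genes lie inside the grey band and *Ciita* lies at -0.98, with an interval from about 0.35-fold to 0.72-fold.

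Across the members, ΔM was set against WT as a log2 ratio with 1 FPKM added to each value, for genes averaging 1 FPKM or more. Of the 9 rows, 7 passed this minimum, and both *Ciita* rows did not. The 7 ratios ran from -0.16 for *H2-Eb1* to 0.16 for *H2-Aa*, with a median of 0.08, against a median of 0.03 over all 10765 genes that passed. None was at least 1.5-fold lower in ΔM, where 7.51% of all genes were, and none was at least 1.5-fold higher, where 11.2% were. At 2-fold the members likewise numbered 0, beside 3.61% of all genes lower and 5.69% higher. Among protein-coding genes, to which all members belong, these shares were 5.36% lower and 4.82% higher at 1.5-fold, and 1.32% lower and 1.19% higher at 2-fold. With so few members, counts of 0 beside these shares are a description and do not set the genes apart from the others. *H2-Aa*, *H2-Ab1*, *Cd74*, *H2-DMa*, *H2-DMb1* and *Ctss* were higher in ΔM, beside 53.8% of all genes that passed and 49.5% of the protein-coding ones. After centring on the median ratio of genes averaging 10 FPKM or more, 4 of the 7 were higher. *Cd74* and *H2-DMb1* then lay just below 0. The summed level of the 5 members other than *Ctss* and *Cd74* was 106 FPKM in WT against 111 in ΔM. The order of the 8 genes was the same in both libraries, and *H2-Aa* and *H2-Ab1* in WT were the only neighbours in that order with overlapping counting intervals.

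The members on chromosome 17 lie among genes of very different levels. The annotation holds 28 protein-coding genes that reach into the 250 kb on either side of *H2-Ab1*, 18 of them averaging 1 FPKM or more. *H2-Eb2*, the next class II gene after *H2-Eb1*, was listed at 0 in both libraries, and so was *Btnl2* beyond it. *H2-Ob*, 24.3 kb before *H2-Ab1*, was under 1 FPKM, whereas *Psmb8* and *Tap1*, which serve class I presentation, were at 275 and 187 FPKM in WT and 253 and 183 in the ΔM library. The 13 other genes of the region averaging 1 FPKM or more had log2 ratios from -0.45 to 0.73 with a median of 0.07, close to the median of the members. Among them *Psmb9* is listed under 2 gene identifiers, of which 1 gave the 0.73 and the other 0.07.

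**Figure D3:**
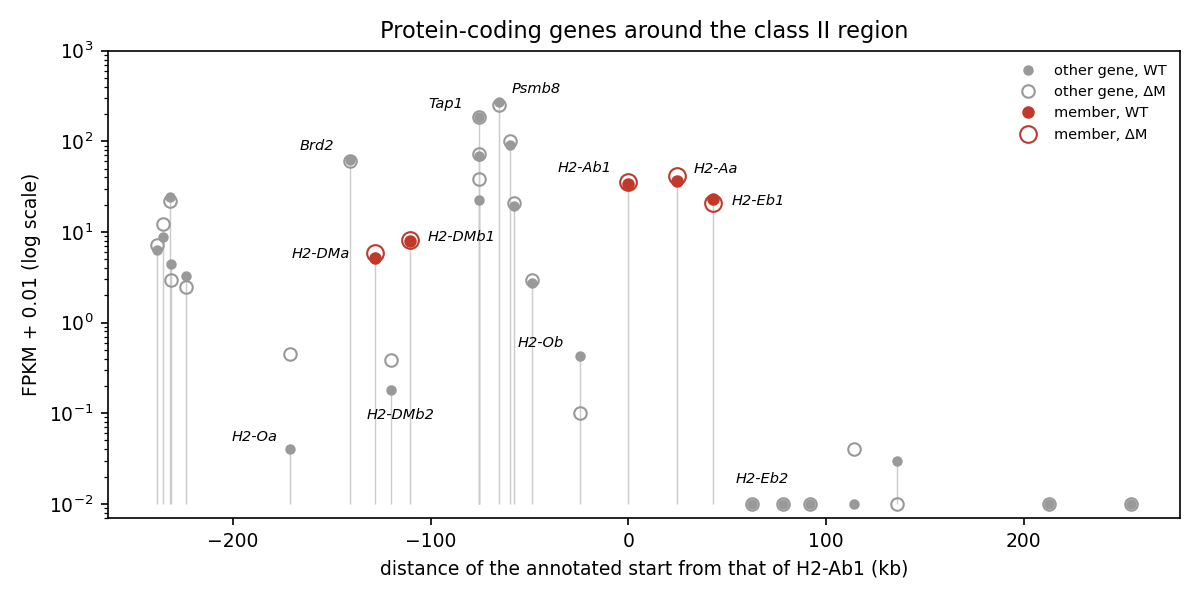
FPKM plus 0.01 (log scale) of the protein-coding genes around the class II region against the distance of their annotated start from that of *H2-Ab1*, in WT (filled) and ΔM (open), with members in red. The 5 members lie between 5.17 and 41.0 FPKM with filled and open symbols nearly on top of each other, while *H2-Oa*, *H2-Ob* and *H2-DMb2* are under 1 FPKM and *H2-Eb2* is listed at 0.

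Other genes of the pathway were taken from lists, by function. Of the class II transcription factor genes, 4 of 7 averaged 1 FPKM or more, and their median log2 ratio was -0.28. *Rfx5*, a subunit of the RFX complex at the X box, was at 4.60 FPKM in WT against 4.59 in ΔM, and *Rfxap* and *Rfxank*, its partners, were at 0.88 and 0.67 FPKM in WT and 0.81 and 1.13 FPKM in ΔM. The NF-Y genes *Nfya*, *Nfyb* and *Nfyc* were at 18.1, 11.5 and 0.59 FPKM in WT. In ΔM they were at 15.2, 9.08 and 0.79 FPKM. *Creb1*, whose product binds the X2 box, was at least 1.5-fold lower in ΔM, with 9.06 FPKM in WT (8.32 to 9.85) and 4.59 FPKM in ΔM (4.04 to 5.20). In this list 0 genes were higher by that amount. Among all genes 7.51% were lower and 11.2% higher, and among protein-coding genes 5.36% were lower and 4.82% higher. Genes for antigen and invariant chain processing were all well expressed, with 8 of 8 found in the table above 1 FPKM and a median log2 ratio of 0.19. *Ctsl*, the cathepsin that can degrade invariant chain in place of cathepsin S, was the 1 gene of the list at least 1.5-fold higher in ΔM. It was at 374 FPKM in WT (368 to 379) and 570 FPKM in ΔM (563 to 578). This stands beside 11.2% of all genes and 4.82% of protein-coding genes. In the list 0 genes were lower by that amount, beside 7.51% and 5.36%. Per length, *Ctss* mRNA exceeded that of *Ctsl* in both libraries. *Lgmn*, an asparagine endopeptidase, was at 222 and 308 FPKM, and *Ifi30*, the lysosomal thiol reductase, at 26.9 and 33.8 FPKM. *Ctsz* and *Ctsc*, further cysteine cathepsins, were the 2 genes of the list with lower values in ΔM, at 478 and 223 FPKM in WT and 465 and 217 FPKM in the ΔM library.

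Of the 6 genes for surface regulation and costimulation, 2 were at least 1.5-fold lower in ΔM and 0 higher, with a median log2 ratio of -0.23. The shares lower and higher were 7.51% and 11.2% of all genes, and 5.36% and 4.82% of protein-coding genes. *Cd40*, which had the highest FPKM of the 6, was lower in ΔM but fell short of 1.5-fold, with a log2 ratio of -0.55. Its level was 1149 FPKM (1133 to 1165) in the WT library, compared with 785 FPKM (771 to 799) in the ΔM library. *March8* and *Cd80* were slightly higher in ΔM, with log2 ratios of 0.10 and 0.09. *Cd83*, whose product stabilizes surface class II, was at 17.7 FPKM in WT (16.7 to 18.7) and 9.64 FPKM in ΔM (8.89 to 10.4). *Cd86*, a costimulatory ligand presented alongside class II, was at 12.95 FPKM in WT (11.7 to 14.3) and 8.17 FPKM in ΔM (7.09 to 9.36). *March1*, the ubiquitin ligase that removes class II from the surface, was at 23.9 FPKM in WT (22.9 to 24.8) and 29.0 FPKM in ΔM (27.9 to 30.1), a log2 ratio of 0.27. In the interferon-γ axis, 0 of 8 genes were at least 1.5-fold different in either direction, and the median log2 ratio was 0.03. *Irf1*, an interferon-induced transcription factor, was at 107 and 110 FPKM. The accessory class II chains had 0 of 5 genes above a mean of 1 FPKM.

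**Figure D4:**
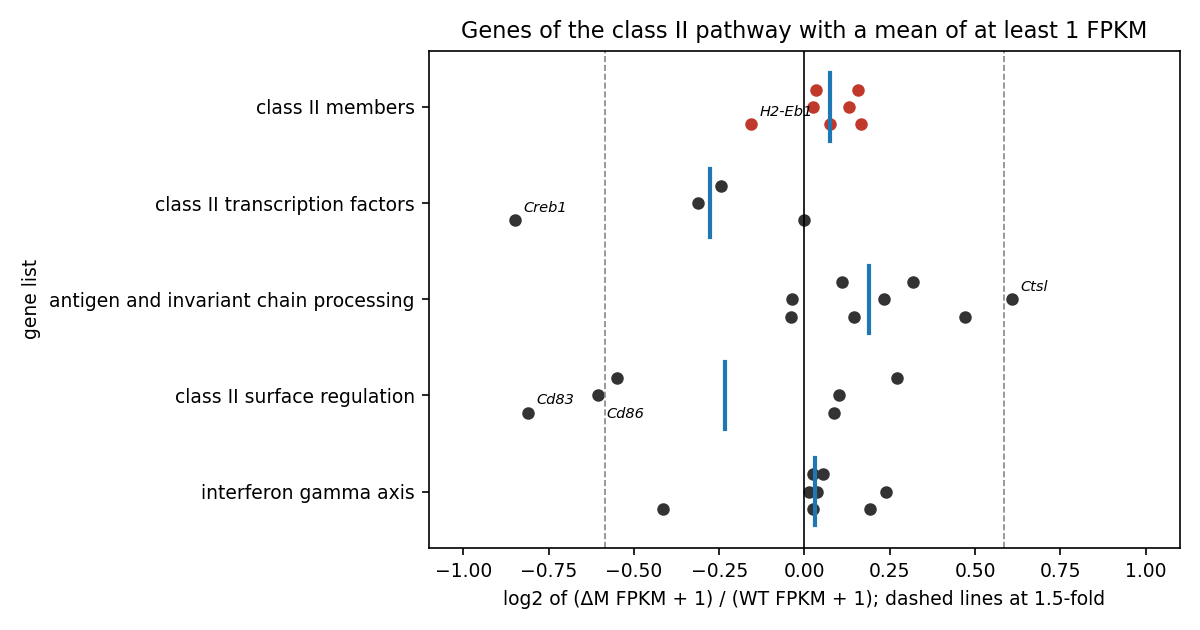
Log2 ratio of ΔM to WT on the log2(FPKM + 1) scale for genes averaging 1 FPKM or more in the lists of the class II pathway, with the median of each list as a blue bar and dashed lines at 1.5-fold. The 7 members lie between -0.16 and 0.16, while *Creb1*, *Cd83* and *Cd86* lie left of the lower line and *Ctsl* right of the upper line.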

How the data were processed

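A single table held the deposited FPKM values of 37451 Ensembl genes in 1 WT and 1 ΔM library, with 2 decimals. Per the paper's methods, the authors removed adaptors with Cutadapt, used Segemehl for mapping to mm9, discarded reads without a unique position and ran Cufflinks on Ensembl exons to obtain FPKMs. The values are not counts, and no count model was used. Both columns were mapped to a library by name, and 1 gene had no number in ΔM.

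Positions, types and transcript lengths came from GENCODE M1 (mm9), which held 37039 of the identifiers. Depth was estimated as the fragment total and mean fragment size (200 nt in both) that best turned the low FPKMs of genes with 1 transcript into whole fragments, which held for 90.8% of 1810 values in WT and 91.2% of 1892 in ΔM, against 20.2% and 19.3% by chance. Counting intervals use the median transcript length. The search was tested on 3 simulated libraries. Ratios used a pseudocount of 1 FPKM and a minimum mean of 1 FPKM. Named were all members, partners of members whatever their ratio (chains of H2-DM, H2-DO and I-E, RFX subunits, *Ifi30*, *Lgmn*, *Ctsl* and *March1*), list genes at least 1.5-fold different, defining markers and the 3 genes nearest to *Cd74*. *Btnl2*, *Psmb8*, *Psmb9*, *Tap1*, *Irf1*, *Ctsz*, *Ctsc*, *Nfya*, *Nfyb*, *Nfyc*, *Cd40*, *March8* and *Cd80* were chosen after their values were seen. The members and lists were chosen with earlier results of these data known. Alternatives covered the pseudocount, filter, centring, scaling, gene type and transcript length. *Sppl2a* and *H2-Ea* were not matched by symbol and are not analysed here, and some genes of the lists are not reported by name. Python 3.11.15, numpy 2.4.6, pandas 2.3.3, scipy 1.17.1 and matplotlib 3.10.9 were used.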

Additional observations from a re-analysis of the deposited data

How the results depend on the processing

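No paired analysis was possible because each genotype had a single library, and no library could be left out. The median log2 ratio of the members lay between 0.03 and 0.08 under all 6 alternatives, and the numbers of members at least 1.5-fold or 2-fold different were 0 under each, counting members that passed its minimum level (with no minimum, all members with 1 FPKM added). The share of all genes past the folds was smaller by construction without a filter on low values, with 3.71% higher and 2.62% lower at 1.5-fold and 1.72% higher and 1.12% lower at 2-fold. Among protein-coding genes it was 4.82% higher and 5.36% lower at 1.5-fold, so that the excess of higher over lower turned round, and 1.19% higher and 1.32% lower at 2-fold, with genes of other types left out. The log2 ratio of *Ciita* went from -0.37 with 1 FPKM added to -0.84 with 0.1 FPKM and -0.97 with 0.01 FPKM, both past 1.5-fold, but its mean is under the minimum. Of 119 comparisons with an alternative, 109 stayed within their range, 10 moved and 0 reversed a difference of at least 1.5-fold, while the log2 ratios of *Cd74* and *H2-DMb1*, both near 0, changed sign after centring. The log2 ratio of *Ctss* was among those that moved, from 0.13 to 0.09 after centring. The counting intervals of *H2-Aa* in WT and ΔM overlapped with the median transcript length and were separate with the longest. Counting error is wide for *Ciita*, *H2-DMb2*, *H2-Oa* and *H2-Ob*.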
